A study of Mus musculus with 24 samples.

Results

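The genes described here are 10 secreted growth factors and growth factor binding proteins of the hair growth cycle: Fgf5, Fgf7, Fgf10, Fgf18, Fgf22, Igf1, Igfbp3, Igfbp5, Hgf and Tgfb2. They were chosen by name, with earlier results of these data known. Of the 21 array probes that carry these names, each gene was read from the one with the highest mean signal. In all, 22065 genes or transcripts had a probe bright enough to test, and 9 of the 10 genes were among them; Hgf was not.

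The study cultured whisker (vibrissa) follicles of B6C3F1 mice with vitamin-related compounds and measured RNA on one-colour microarrays, and its title concerns joint effects of the compounds on hair shaft growth. Follicles were taken on postnatal day 9 and kept for 24 h in RPMI 1640 with 10% fetal bovine serum, which all groups shared. PEE is panthenyl ethyl ether, an ether of panthenol, given at 0.3%; PH is pyridoxine hydrochloride, a form of vitamin B6, at 0.015%; TA is tocopherol acetate, an ester of vitamin E, at 0.024%. The 8 groups were a control without compound, PEE, PH, TA, PEE-PH, PEE-TA, PH-TA and PEE-PH-TA, with 3 arrays each from 3 independent experiments and the RNA of 10 follicles on each array. The labels name no vehicle for the control and no sex, and whether the follicles of a sample came from 1 mouse or several is not given in the sources used here.

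A follicle cycles through growth (anagen), regression (catagen) and rest (telogen), and the switch between these phases is set by signals that pass between the dermal papilla, a small body of mesenchymal cells at the follicle's base, and the epithelium around it. FGF ligands bind receptor tyrosine kinases, IGF1 and HGF act through the receptors Igf1r and Met, the IGF binding proteins hold IGFs in the extracellular fluid, and TGF-beta ligands act through Tgfbr1, Tgfbr2 and the Smad proteins. In follicles FGF7, FGF10, IGF1 and HGF are known as growth-phase signals from the papilla, FGF5 and TGF-beta 2 are linked with the start of regression, FGF18 with rest, and FGF22 is found in the inner root sheath.

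A level below is the log2 signal of a probe minus the 75th percentile of its array on the same scale, so levels compare arrays for 1 probe and never probes with each other. Differences are log2 differences of group means from limma, fitted on all 24 arrays, with Benjamini-Hochberg adjustment over the 22065 genes and a threshold of 0.05. Between 58.3% and 62.5% of spots were well above background, and replicates of a group correlated at 0.993 to 0.997. The 75th percentile signal itself differed between groups, from 142 to 147 with PEE to 203 to 248 with PH-TA; its part in the results was not tested. Markers of the labelled tissue were present: all 6 listed markers of the inner root sheath, all 6 of the matrix and hair shaft, all 7 of the outer root sheath and 9 of 10 of the dermal papilla passed the filter, Corin being the exception. Because whole follicles were measured, fewer cells of a type and less RNA per cell cannot be told apart.

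The promoters of 4 of the genes are shown because their transcripts moved together in pairs: Tgfb2 with Igfbp3, and Fgf5 with Fgf22. Each sequence is the 250 bases before the RefSeq transcription start (build GRCm38.p6), on the gene's strand, 5′ to 3′, and capitals mark matches to the motifs searched. The windows are chr1:186705990-186706239 (minus strand) for Tgfb2, chr11:7213924-7214173 (minus) for Igfbp3, chr5:98253934-98254183 (plus) for Fgf5 and chr10:79754859-79755108 (plus) for Fgf22.
Tgfb2: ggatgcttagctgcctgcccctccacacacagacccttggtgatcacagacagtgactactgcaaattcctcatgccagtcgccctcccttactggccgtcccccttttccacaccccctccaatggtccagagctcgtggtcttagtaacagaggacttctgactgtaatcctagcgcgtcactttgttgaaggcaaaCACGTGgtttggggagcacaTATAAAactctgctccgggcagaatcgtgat
Igfbp3: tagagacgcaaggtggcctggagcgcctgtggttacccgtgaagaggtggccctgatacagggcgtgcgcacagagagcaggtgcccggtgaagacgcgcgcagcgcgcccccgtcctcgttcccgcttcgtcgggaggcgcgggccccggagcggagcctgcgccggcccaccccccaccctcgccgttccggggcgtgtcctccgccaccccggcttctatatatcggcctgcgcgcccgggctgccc
Fgf5: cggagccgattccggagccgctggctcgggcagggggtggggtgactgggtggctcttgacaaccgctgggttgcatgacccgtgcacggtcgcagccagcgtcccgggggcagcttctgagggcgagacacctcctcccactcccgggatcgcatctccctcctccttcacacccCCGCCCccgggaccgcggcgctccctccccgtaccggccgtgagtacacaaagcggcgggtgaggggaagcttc
Fgf22: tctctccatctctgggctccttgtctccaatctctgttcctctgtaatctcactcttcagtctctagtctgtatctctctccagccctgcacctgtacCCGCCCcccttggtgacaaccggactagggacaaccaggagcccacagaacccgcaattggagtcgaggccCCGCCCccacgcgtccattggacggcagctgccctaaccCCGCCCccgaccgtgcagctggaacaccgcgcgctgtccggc
Tgfb2 holds an E-box, CACGTG, beginning 51 bases before the start, and a TATA box, TATAAA, 31 bases before it. Of all 32851 RefSeq mouse promoters of this length, 6.02% hold CACGTG and 12.4% hold TATAAA on either strand. Fgf22 holds the GC box GGGCGG in reverse, as CCGCCC, at 152, 81 and 42 bases before the start, and Fgf5 holds it once, at 74 bases; 32.7% of all promoters hold it. The Igfbp3 window has none of the 6 motifs searched, the others being the AP-1 site TGANTCA (6.75% of promoters), the cAMP response element TGACGTCA (1.55%) and the antioxidant response element core TGACNNNGC (10.2%). These are matches of letters only.

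In the comparisons with control, a few of the genes passed the test with the mixtures. None of the 9 genes passed the test for PEE alone (0, against 10.9% of all genes called), PH alone (0, against 5.25%) or TA alone (0, against 1.83%); at an unadjusted p under 0.05 the counts were 3, 2 and 1. Fgf22 was near the threshold with PEE (-0.50, adjusted p = 0.0548) and past it under quantile normalization, a trended and robust prior and in the authors' deposited table (0.0314, 0.0467 and 0.0356). With PEE-PH 3 rose and 0 fell, where 14.9% of all genes rose and 20.9% fell. With the replicate number as a block Igf1 rose there as well (adjusted p = 0.048). Under PEE-TA 1 rose (10.2% of all genes) and 1 fell (15.3%). Under PH-TA 3 rose (12.1%) and 0 fell (17.5%), and in the triple mixture 1 rose (7.78%) and 0 fell (8.72%). In either direction 3, 2, 3 and 1 of 9 genes were called in these groups, beside 35.9%, 25.5%, 29.6% and 16.5% of all genes, so the 9 genes were called about as often as genes in general. The genes that rose were Tgfb2 in all 4 mixtures, Igfbp3 in PEE-PH and PH-TA, Fgf18 in PEE-PH and Fgf22 in PH-TA, and the gene that fell was Fgf10 in PEE-TA. Arrays of a treated group did not overlap those of control for 5, 4 and 1 of the 9 genes with PEE, PH and TA (32.6%, 26.5% and 22.7% of all genes). The counts were 5, 5, 5 and 3 of 9 with PEE-PH, PEE-TA, PH-TA and PEE-PH-TA (49.9%, 41.1%, 44.6% and 32.6%). All these comparisons share the same 3 control arrays.

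**Figure D1:**
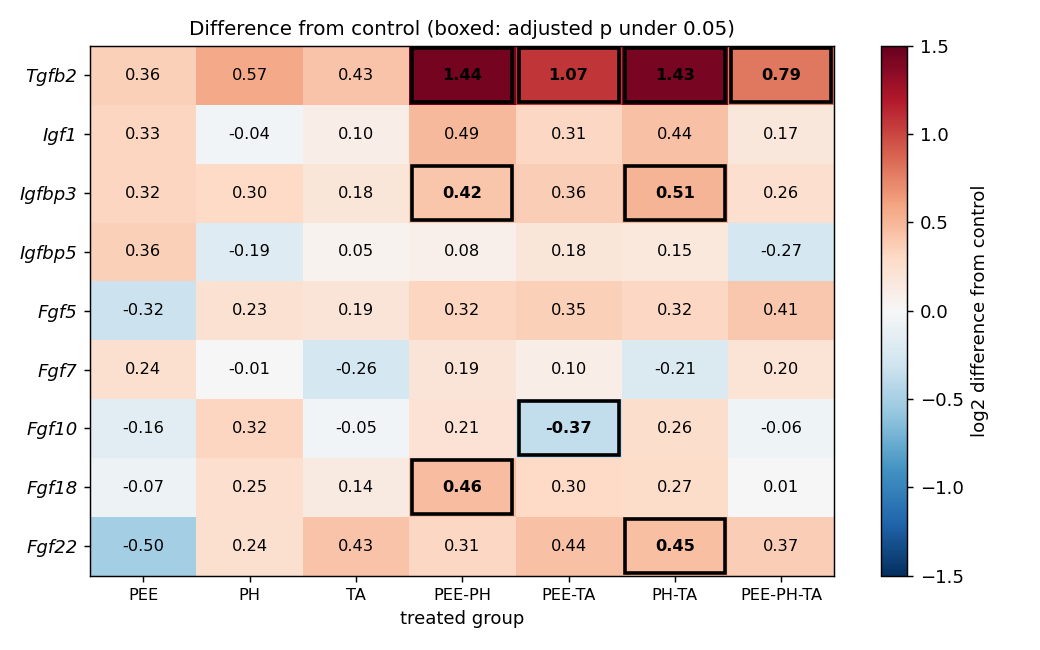
Log2 difference from control of the 9 tested genes (vertical) in the 7 treated groups (horizontal), with values printed and coloured from -1.5 (blue) to 1.5 (red). Boxes mark the 9 differences with an adjusted p under 0.05; 4 of them are Tgfb2, which was above control in every treated group, by 0.36 to 1.44.

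Tgfb2, the gene of transforming growth factor beta 2, showed the largest differences among the 9 genes. Its level in control was 1.46, 1.48 and 1.47 on the 3 arrays. Among follicles given 1 compound it was 1.81, 2.13 and 1.53 (PEE), 1.88, 2.35 and 1.88 (PH) or 1.93, 1.98 and 1.78 (TA). Every array of these single-compound groups lay above every control array, but the differences of 0.36 (PEE), 0.57 (PH) and 0.43 (TA), each with a standard error of 0.25, missed the threshold (adjusted p = 0.408, 0.206 and 0.406). The pairs had higher means. PEE-PH gave 3.24, 2.88 and 2.59, PEE-TA gave 2.00, 2.87 and 2.74, whereas PH-TA gave 3.50, 2.86 and 2.33. With all compounds together they were 2.32, 2.26 and 2.21, within the range of PEE-TA and below every array of PEE-PH and PH-TA. Tgfb2 rose by 1.44 ± 0.25 (SE; 2.71-fold) with PEE-PH, adjusted p = 0.000302. It rose by 1.43 with PH-TA (adjusted p = 0.000736), by 1.07 with PEE-TA (0.00514) and by 0.79 with PEE-PH-TA (0.0375). The first 3 calls were kept when any 1 array was left out. The fourth was lost without any 1 of its 6 arrays, with adjusted p from 0.0669 (without PEE-PH-TA replicate 3) to 0.1 (without PEE-PH-TA replicate 1), the difference staying between 0.76 and 0.82. With a replicate number left out in all groups, the calls with PEE-PH and PH-TA were kept (adjusted p up to 0.0206 and 0.0306). That with PEE-TA was then lost in 2 of 3 cases (up to 0.156), and that with PEE-PH-TA in 3 of 3 (up to 0.215).

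Each slide carried 1 array of every group, so the differences could be read within a slide. On slides 1, 2 and 3 Tgfb2 differed from control by 1.78, 1.41 and 1.13 with PEE-PH. The values were 0.54, 1.40 and 1.28 with PEE-TA and 2.04, 1.38 and 0.87 with PH-TA. They were 0.86, 0.78 and 0.74 with PEE-PH-TA. The sign was the same on each slide, while the order of the pairs was not. With the slide as a block in the fit the adjusted p values were 0.000267, 0.0041, 0.00066 and 0.0299. A second Tgfb2 probe followed the first across the 24 arrays (r = 0.965). It rose by 1.19, 0.74 and 1.21 in the pairs PEE-PH, PEE-TA and PH-TA (adjusted p over 33340 probes 0.000812, 0.0267 and 0.0014), and its difference of 0.65 with PEE-PH-TA missed the threshold (0.064). The used probe lies at chr1:188449333-188449392 and the second at chr1:188447534-188447593 of the files' build, NCBI37 (mm9), both on the minus strand.

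**Figure D2:**
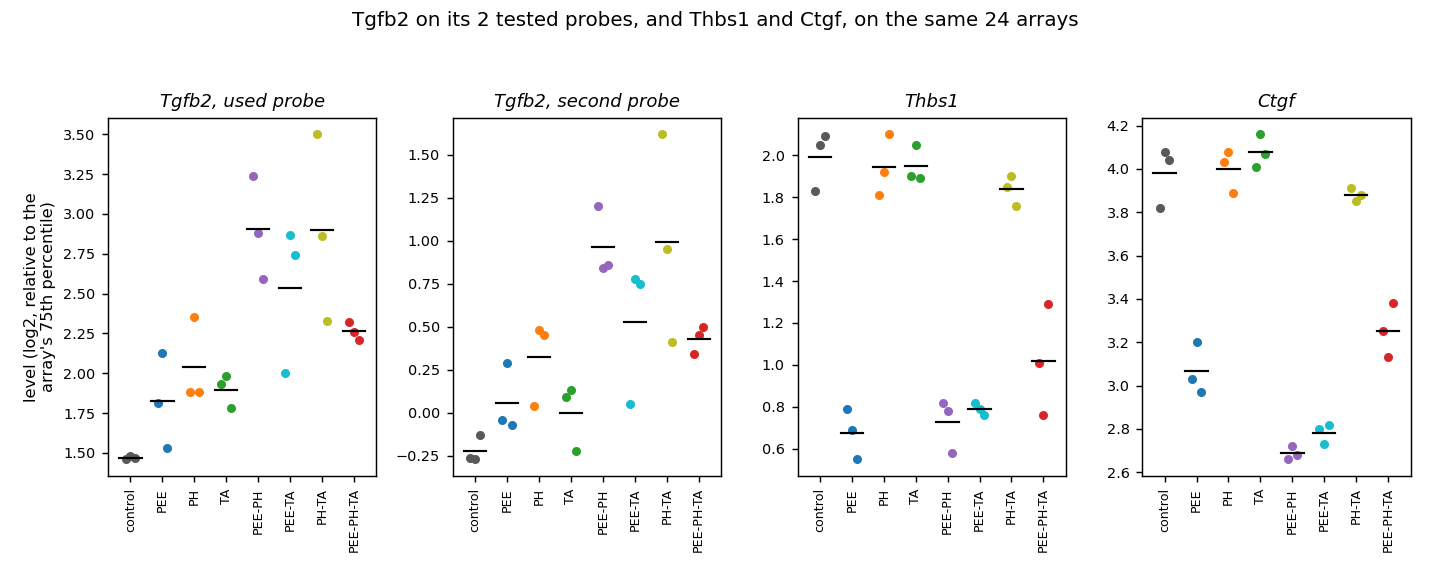
Level on each array (points; log2, relative to the array's 75th percentile) and group mean (line) of Tgfb2 on both tested probes and of Thbs1 and Ctgf, by group. Tgfb2 is highest in the 3 pairs on both probes, and Thbs1 and Ctgf are low in the 4 groups that hold PEE.

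Ctgf, known as a target of TGF-beta signalling, and Thbs1, whose product thrombospondin can activate latent TGF-beta, fell in the 4 groups that hold PEE (adjusted p of 1.79e-05 or less for both genes). Thbs1 was at 1.83, 2.05 and 2.09 in control and at 0.79, 0.69 and 0.55 with PEE. It fell by 1.32, 1.27, 1.2 and 0.97 in the groups PEE, PEE-PH, PEE-TA and PEE-PH-TA. Ctgf, now named Ccn2, a matricellular protein, was at 3.82, 4.08 and 4.04 in control and at 2.66, 2.72 and 2.68 with PEE-PH. It fell by 0.91, 1.29, 1.2 and 0.73 in the same 4 groups. In the groups without PEE neither Thbs1 nor Ctgf was called: the differences of Thbs1 were -0.05, -0.04 and -0.16 and those of Ctgf 0.02, 0.10 and -0.10 with PH, TA and PH-TA. The list of TGF-beta transducers and targets as a whole was divided. With PEE-PH 3 of its 10 genes rose and 4 fell, with PEE-TA 3 rose and 2 fell, with PH-TA 1 rose and 2 fell, and with all compounds 1 rose and 3 fell.

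The receptor Tgfbr1 rose in all 4 mixtures. Its level was -0.72, -0.62 and -0.58 in control, 0.12, 0.12 and 0.05 with PEE-PH, and -0.02, -0.21 and 0.13 with all compounds. Tgfbr1 rose by 0.74 with PEE-PH (adjusted p = 1.97e-05), 0.58 with PEE-TA (0.000399), 0.53 with PH-TA (0.000863) and 0.61 with PEE-PH-TA (0.00031). It also rose by 0.32 with PEE and 0.42 with PH (0.0379 and 0.0168). The call with PEE was lost without PEE replicate 2 or any control array, with adjusted p up to 0.192. That with PH was lost without PH replicate 2 or 3 or control replicate 1, up to 0.0755. Tgfbr2, the partner receptor, rose by 0.42 with PEE-PH and 0.40 with PH-TA (0.00315 and 0.00609). Neither of the other ligands passed against control in any group: with PEE-PH the differences were 0.20 for Tgfb1 and 0.05 for Tgfb3 (0.272 and 0.759). Ltbp3, a protein that keeps TGF-beta latent in the matrix, rose by 0.86 with PEE-PH, 0.80 with PEE-TA, 0.75 with PH-TA and 0.42 with all compounds. Ltbp2, of the same family, was at 4.83, 4.81 and 4.88 in control and 3.76, 3.82 and 3.82 with PEE-PH. Ltbp2 fell by 1.04 there, by 0.57 with PEE alone, by 0.62 and 0.50 in the other pairs (PEE-TA, PH-TA) and by 0.87 with all compounds. Among the 14 ligands, latency proteins and receptors 4 rose and 3 fell with PEE-PH, and the list's median difference was 0.04, beside -0.06 over all genes.

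Several cell type marker lists changed in the groups where Tgfb2 rose, and some of them also with single compounds. All 6 inner root sheath markers rose in each pair, 4 of 6 with all compounds and 3 of 6 with PH and with TA alone. The sum of their levels on the linear scale, relative to the 75th percentile, was 474 to 634 in control and 833 to 942 over the pairs. Of the 6 endothelial markers 5 rose with PEE alone, 5 with PEE-PH, 6 with PEE-TA, 5 with PH-TA and 3 with all compounds. Their summed level was 6.10 to 7.03 in control, 9.50 to 10.8 with PEE and 8.37 to 13.4 over the pairs. Of the 7 outer root sheath markers 3 fell in each of the groups PEE, PEE-PH and PEE-TA, and 2 fell with all compounds, while 2 rose and 2 fell with PH-TA. Skeletal muscle markers rose in 4 of 6 with PEE-PH and PEE-TA and 2 of 6 with PH-TA. Of the 5 mast cell markers 4 fell with PEE-PH and PH-TA, 2 with PEE-TA and 3 with all compounds, and 1 rose in each pair. No marker of these lists was missing from the genes tested. Their part in the results was not tested.

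**Figure D3:**
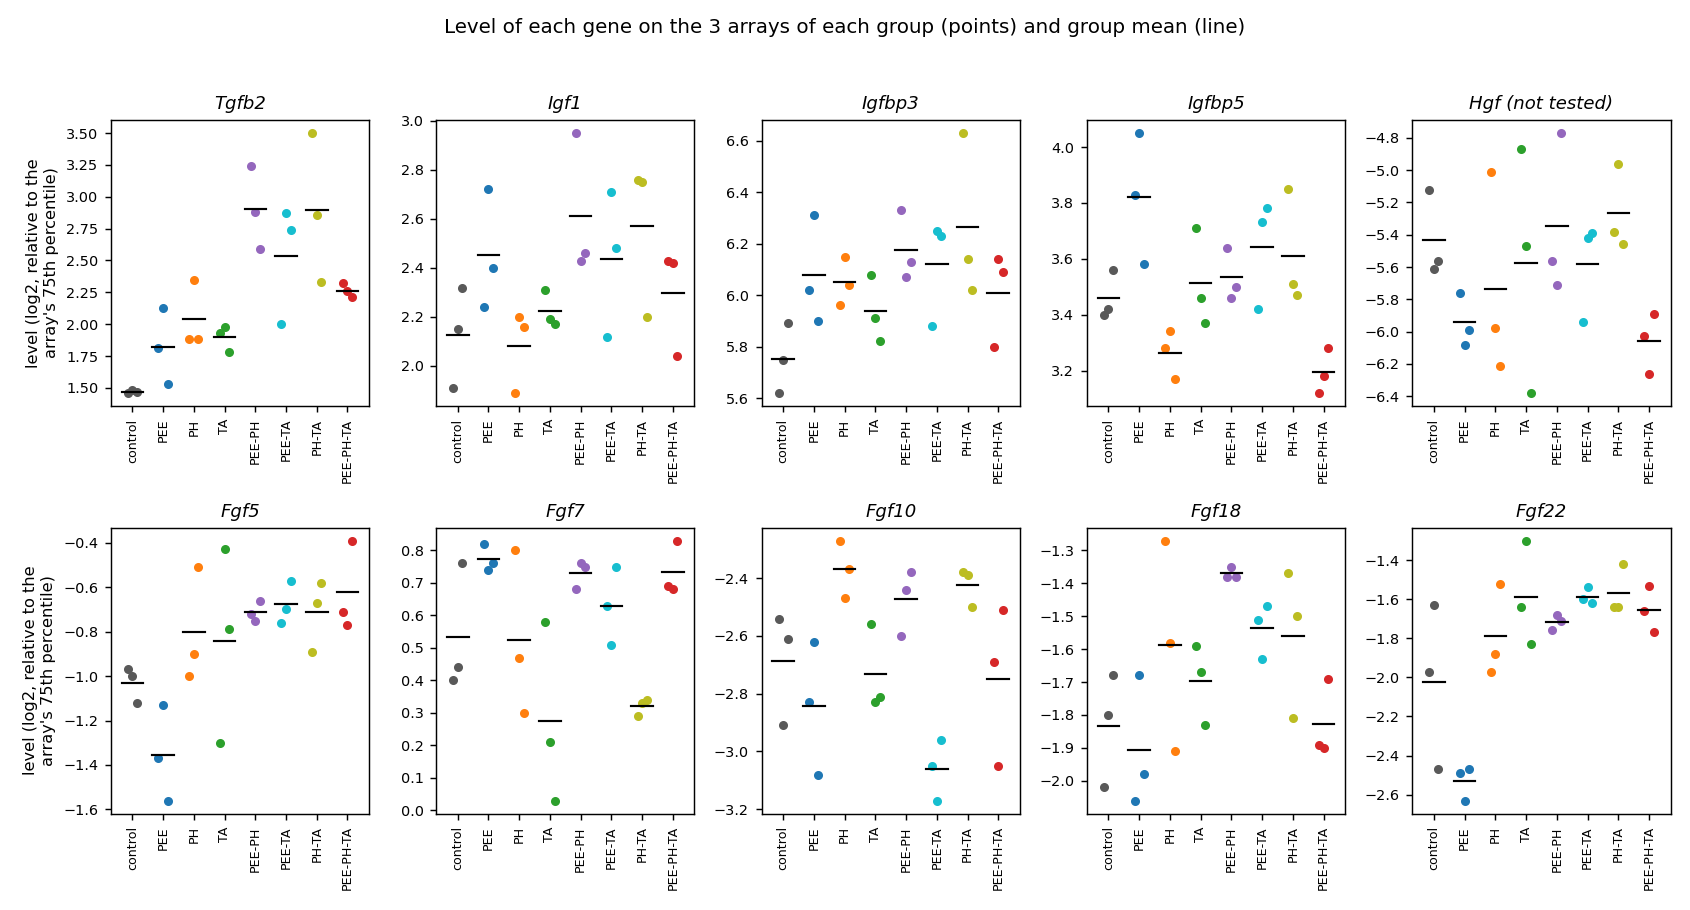
Level of each of the 10 genes (log2, relative to the array's 75th percentile) on the 3 arrays of each group (points) with the group mean (line); each panel has its own vertical scale. Group means span 1.44 for Tgfb2, 0.96 for Fgf22 and between 0.50 and 0.79 for the other genes, and Hgf was dim on most arrays.

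Igf1, the insulin-like growth factor made by the dermal papilla, was not called in any comparison in the main fit. Its level was 1.91, 2.15 and 2.32 in control and 2.95, 2.43 and 2.46 with PEE-PH. The PEE-PH arrays lay above all control arrays, and the adjusted p of the difference of 0.49 ± 0.19 was just above the threshold (0.0503). It passed with the slide as a block (0.048) and under a trended and robust prior (0.0451). Under another background correction, normexp, it passed as well (0.50, 0.0199). With PH-TA the levels were 2.76, 2.75 and 2.20 (difference 0.44, adjusted p = 0.0832, and 0.49 with 0.0203 under normexp). Those of PEE were 2.24, 2.72 and 2.40, of PH 1.89, 2.20 and 2.16, of TA 2.31, 2.19 and 2.17, of PEE-TA 2.12, 2.71 and 2.48, and of PEE-PH-TA 2.43, 2.42 and 2.04. All these groups overlapped control. The other tested Igf1 probes did not follow the first (r = 0.035 and 0.101 over 24 arrays). Their differences with PEE-PH were -0.13 and -0.72 (adjusted p over probes 0.425 and 0.0865), so the small increase was seen on 1 of 3 probes.

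Igfbp3, the main carrier of IGFs in serum and a known TGF-beta-responsive gene, was lowest in control. Its level there was 5.62, 5.75 and 5.89. It was 6.33, 6.07 and 6.13 with PEE-PH and 6.63, 6.14 and 6.02 with PH-TA. Neither pair overlapped control, and Igfbp3 rose by 0.42 ± 0.15 with PEE-PH and by 0.51 ± 0.15 with PH-TA (adjusted p = 0.0356 and 0.0165). Levels were 6.02, 6.31 and 5.90 with PEE and 5.96, 6.15 and 6.04 with PH, above control on every array. They were 6.08, 5.91 and 5.82 with TA, 5.88, 6.25 and 6.23 with PEE-TA, and 5.80, 6.14 and 6.09 with all compounds, each overlapping control. No group other than those pairs was called. The call with PH-TA was lost without PH-TA replicate 1, where the difference was 0.32 (adjusted p = 0.12), and without control replicate 1 (0.0626). The call with PEE-PH was lost without PEE-PH replicate 1 or 3 or control replicate 1 or 2, with adjusted p of 0.14, 0.0542, 0.118 and 0.0782. With a replicate number left out in all groups, the PEE-PH call was lost in 3 of 3 cases (up to 0.142). The PH-TA call was then lost in 2 of 3 (up to 0.194). The second Igfbp3 probe (r = 0.165 with the first) gave -0.16 with PEE-PH and -0.18 with PH-TA, neither called, and on the mean of the probes the differences were 0.13 and 0.16 (0.495 and 0.404).

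Igfbp5, a binding protein that also attaches to the extracellular matrix, lay on opposite sides of control with PEE and with PH. Its level was 3.40, 3.42 and 3.56 in control, 3.83, 4.05 and 3.58 with PEE, and 3.28, 3.34 and 3.17 with PH. PEE lay above and PH below control on all arrays, but neither the difference of 0.36 nor that of -0.19 was called (adjusted p = 0.0754 and 0.413). TA gave 3.71, 3.46 and 3.37, PEE-PH gave 3.64, 3.46 and 3.50, PEE-TA gave 3.42, 3.73 and 3.78, whereas PH-TA gave 3.85, 3.51 and 3.47, and all 4 of these groups overlapped control. The lowest group was PEE-PH-TA at 3.12, 3.18 and 3.28, below control on every array (-0.27, adjusted p = 0.169). Averaged over its 4 backgrounds, PH lowered Igfbp5, as given below, and the second probe fell likewise (-0.28, adjusted p = 0.0195; r = 0.723 with the first).

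Several other genes of the IGF axis rose in the mixtures. Igfbp4, an inhibitory binding protein, was at 1.2, 1.17 and 1.32 in control and at 2.64, 2.37 and 2.44 with PEE-PH. Igfbp4 rose by 1.25 with PEE-PH (adjusted p = 5.34e-05), 1.07 with PH-TA (0.00054), 0.78 with PEE-TA (0.00459) and 0.77 with all compounds (0.00674). Pappa, the protease that cleaves IGFBP4, rose by 0.78 with PEE-PH and 0.95 with PH-TA (0.0133 and 0.00543). Igfals, the acid-labile subunit of the serum IGF complex, rose by 1.28 with PEE-PH (0.0237), but normexp background correction left 0.03 (0.743). The Igfals call was also lost without PEE-PH replicate 1 or 2 or control replicate 2 or 3 (0.11, 0.0684, 0.108 and 0.053). Igf1r, the IGF1 receptor, rose by 0.56, 0.44 and 0.42 with PEE-PH, PEE-TA and PH-TA (0.00109, 0.00927 and 0.0109), and its difference with all compounds was 0.20 (0.277). Igf2, the related ligand, was not called with any mixture. Of the 7 other binding proteins and proteases tested 5 rose with PEE-PH and PH-TA, 2 with PEE-TA and 1 with all compounds, and none fell there; Igfbp1 was too dim to test. Of 6 ligand, receptor and adaptor genes 4 rose with PEE-PH, 3 with PEE-TA, 4 with PH-TA and 0 with all compounds.

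Hgf, the hepatocyte growth factor of the papilla, was at the limit of detection. Its brightest of 4 probes was well above background on 6 of 24 arrays, with a signal of 2.10 to 7.36, where the dimmest signal called well above background was 4.28 to 4.68 on an array. A fit that keeps dim probes gave no call for Hgf in any comparison, the lowest adjusted p being 0.0889. The receptor Met was measurable and rose by 0.39, 0.27 and 0.23 in the pairs PEE-PH, PEE-TA and PH-TA (adjusted p = 0.000516, 0.0112 and 0.0249). Spint2, an inhibitor of the proteases that activate HGF, fell by 0.50 with PH-TA (0.0111); it was not called on the mean of its probes (-0.23, 0.356), and the call was lost without PH-TA replicate 2 or control replicate 3 (0.0588 and 0.0503).

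Fgf7, the keratinocyte growth factor of the papilla, was higher where PEE was present. Its level was 0.40, 0.44 and 0.76 in control, 0.80, 0.47 and 0.30 with PH, 0.58, 0.21 and 0.03 with TA, and 0.29, 0.33 and 0.34 with PH-TA. PEE gave 0.82, 0.74 and 0.76, PEE-PH gave 0.68, 0.76 and 0.75, PEE-TA gave 0.63, 0.51 and 0.75, and the triple mixture gave 0.69, 0.68 and 0.83. PH-TA lay below every control array and the other groups overlapped control, and no single comparison with control was called (differences from -0.26 to 0.24). The average effect of PEE, over 12 arrays with it and 12 without, was nevertheless 0.30 ± 0.06 (adjusted p = 0.00152). PEE raised the mean level in 4 of 4 backgrounds, by 0.20 to 0.41, and on 10 of 12 same-slide pairs. The summed level of 9 dermal papilla markers was 23.6 to 25.9 in control and 18.6 to 19.99 with PEE. Of the 9 markers only 1 rose and 1 fell with PEE, with a median difference of 0.006 beside 0.016 over all genes. Their sum was 20.9 to 24.8 with PEE-PH, 23.7 to 26.5 with PEE-TA and 21.0 to 22.9 with all compounds. In each pair 4 of them rose and 2 or 3 fell. The part of these markers in the values of the papilla ligands was not tested.

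Fgf10, the related papilla ligand for the same epithelial receptor, moved the other way with PEE and up with PH. Its level was -2.54, -2.91 and -2.61 in control, -2.27, -2.47 and -2.37 with PH, -2.60, -2.44 and -2.38 with PEE-PH, and -2.38, -2.39 and -2.50 with PH-TA. It was -2.83, -2.62 and -3.08 with PEE, -2.56, -2.83 and -2.81 with TA, -3.05, -3.17 and -2.96 with PEE-TA, and -2.69, -3.05 and -2.51 with all compounds. PH and PH-TA lay above control and PEE-TA below it on every array. Fgf10 fell by 0.37 ± 0.13 with PEE-TA (adjusted p = 0.0481), a call lost without control replicate 1 or 3 or without any PEE-TA array, at adjusted p of 0.16, 0.143, 0.0794, 0.172 and 0.0596, and under 5 of 8 other settings. The average effect of PH was 0.33 ± 0.07 (0.00166), positive on 12 of 12 same-slide pairs, and that of PEE -0.23 ± 0.07 (0.0157), negative on 10 of 12. Fgf10 is dim, and another background correction, normexp, reduced these averages to 0.03 and -0.04, neither called.

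Fgf5, the regression-linked ligand, and Fgf22, the inner root sheath ligand, followed each other over the arrays (r = 0.75). The level of Fgf5 was -0.97, -1.0 and -1.12 in control and -1.37, -1.13 and -1.56 with PEE, below every control array. It was -1.0, -0.90 and -0.51 with PH and -1.30, -0.43 and -0.79 with TA, overlapping control. PEE-PH gave -0.72, -0.75 and -0.66, PEE-TA gave -0.76, -0.70 and -0.57, PH-TA gave -0.89, -0.67 and -0.58, and the triple mixture gave -0.71, -0.77 and -0.39. All 4 mixtures lay above control, yet differences of 0.32, 0.35, 0.32 and 0.41 with a standard error of 0.17 did not pass (adjusted p = 0.159, 0.143, 0.178 and 0.122). In the authors' deposited table Fgf5 passed with PEE-TA and PEE-PH-TA (0.043 and 0.044). In fits of only the arrays compared it passed with PEE-PH and PEE-TA (0.0191 and 0.0418).

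The level of Fgf22 was -1.97, -1.63 and -2.47 in control, the widest control range of the tested genes. With PEE it was -2.49, -2.63 and -2.47, below every control array, and the difference of -0.50 ± 0.16 narrowly missed the threshold (adjusted p = 0.0548). PH gave -1.97, -1.88 and -1.52, TA gave -1.64, -1.30 and -1.83, PEE-PH gave -1.76, -1.68 and -1.71, and the triple mixture gave -1.66, -1.53 and -1.77. PEE-TA gave -1.60, -1.54 and -1.62, all above control, while the arrays of PH-TA at -1.64, -1.64 and -1.42 overlapped it. Fgf22 rose by 0.45 with PH-TA (0.0434), a call that rests on control replicate 3: without that array the difference was 0.23 (0.27). It was also lost without control replicate 1 or any PH-TA array (0.0662 to 0.122). The second Fgf22 probe (r = 0.832) rose with each mixture, by 0.75 with PEE-PH, 0.87 with PEE-TA, 0.71 with PH-TA and 0.65 with all compounds (adjusted p over probes 0.00578, 0.00355, 0.0113 and 0.028). Its control levels were -3.49, -3.2 and -4.38, so control replicate 3 was again the lowest, and its part in these calls was not tested. With all compounds the probe was at -2.88, -3.25 and -3.0, overlapping control. This probe is dim, with signals down to 7.47. The transcript whose levels were most like those of Fgf22 was Krt73, an inner root sheath keratin (r = 0.937 over 24 arrays, of 15566 named genes ranked). Krt28, another inner root sheath keratin, was most like Fgf5 (r = 0.884). The shift of the inner root sheath marker list described above lies in the same groups; its part was not tested.

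Fgf18, the ligand of the resting follicle, rose with PEE-PH. Its level was -2.02, -1.80 and -1.68 in control. PEE gave -2.06, -1.68 and -1.98, PH gave -1.27, -1.58 and -1.91, whereas TA gave -1.59, -1.67 and -1.83, each overlapping control. It was -1.38, -1.35 and -1.38 with PEE-PH, above every control array, and -1.51, -1.63 and -1.47 with PEE-TA, also above. With PH-TA it was -1.37, -1.81 and -1.5, and with all compounds -1.89, -1.90 and -1.69, back in the control range. Fgf18 rose by 0.46 ± 0.14 with PEE-PH (adjusted p = 0.0165). The call was lost without control replicate 1 (0.37, 0.0781) and under the normexp correction (0.17, 0.074).

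Of 5 FGF receptor genes 2 rose and 1 fell with PEE. The one that fell was Fgfr3, a receptor of FGF18, at -0.67 (adjusted p = 0.00101); it is named here after its values were seen. Fgfr2, the receptor of FGF7, FGF10 and FGF22 in its epithelial form, was not called in any group, with differences between -0.09 and 0.09. Fgfr1 rose by 0.33 with PEE, by 0.37, 0.31 and 0.19 in the pairs PEE-PH, PEE-TA and PH-TA, and by 0.31 with all compounds (adjusted p from 0.000435 to 0.0466). With PEE its call was lost on the mean of its probes (0.22, 0.108) and in a fit of the 6 arrays alone (0.0702). Fgfr4 rose by 0.74, 0.73 and 0.77 in the same pairs (0.000367, 0.000784 and 0.000603). With PH alone Dusp6, a feedback phosphatase of the pathway, and Fgfrl1, a receptor without a kinase, rose by 0.36 and 0.26 (0.0202 and 0.0344). The Dusp6 call was lost without PH replicate 2 or 3 or control replicate 1 or 3 (0.0582 to 0.0937), and the Fgfrl1 call without PH replicate 1 or 2 or control replicate 2 or 3 (0.0895 to 0.162). Fgfbp1, a carrier that frees FGFs from the matrix, was at 3.87, 3.92 and 3.81 in control and 4.47, 4.41 and 4.56 with PEE. Fgfbp1 rose by 0.61 with PEE, 0.41 with PEE-TA and 0.58 with all compounds, and fell by 0.39 with PH-TA (0.00663, 0.0311, 0.00556 and 0.0343). Of the 8 other FGF ligands tested 1 rose and 1 fell with PEE-PH. These were Fgf2 (0.47, 0.0437) and Fgf1 (-0.51, 0.000668), likewise named after their values were seen. Fgf9 rose by 0.97 with PH-TA (0.00779) but not under normexp (0.15, 0.0618). Of the 5 receptors 3 rose with PEE-PH, 3 with PEE-TA, 4 with PH-TA and 2 with all compounds, and of 12 carriers, feedback and target genes 6, 5, 6 and 2 rose while 1 fell, with PH-TA.

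Over the 70 pathway genes tested of 73 listed, 27 rose and 10 fell with PEE-PH, with a median difference of 0.19 beside -0.06 over all genes, of which 14.9% rose and 20.9% fell. PEE-TA had 19 rises and 8 falls (10.2% and 15.3% of all genes), PH-TA had 26 and 7 (12.1% and 17.5%), and PEE-PH-TA had 8 and 9 (7.78% and 8.72%). With the single compounds 4 rose and 8 fell (PEE; 10.9% of all genes in either direction), 3 and 1 (PH; 5.25%) and 0 and 0 (TA; 1.83%).

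The factorial design gives each compound's average effect, the mean of the 4 groups with it minus the mean of the 4 without it. For PH 4 of the 9 genes rose and 1 fell, where 13.9% of all genes rose and 17.4% fell (31.3% in all). Tgfb2 rose by 0.59 ± 0.13 (adjusted p = 0.00211), Fgf10 as above, Fgf5 by 0.26 ± 0.09 (0.0277) and Fgf22 by 0.25 ± 0.08 (0.0259), and Igfbp5 fell by 0.21 ± 0.06 (0.0181). These averages were uneven over the backgrounds. Added to control, PEE, TA and PEE-TA, PH shifted the mean of Tgfb2 by 0.57, 1.08, 1.00 and -0.28. In the same order the shifts were 0.23, 0.64, 0.13 and 0.05 for Fgf5 and 0.24, 0.81, 0.02 and -0.07 for Fgf22. For Igfbp5 they were -0.19, -0.28, 0.10 and -0.45. The Fgf5 call was lost without PEE, PH or PEE-PH-TA replicate 3 (0.053, 0.0506 and 0.0513), and normexp reduced Fgf22 to 0.04 (0.374). For PEE 1 gene rose and 1 fell, Fgf7 and Fgf10, beside 12.8% and 14.2% of all genes (27% in all). For TA 1 rose and 0 fell, beside 2.78% and 5.2% (7.99% in all): Fgf22, by 0.41 ± 0.08 (0.0075), positive in 4 of 4 backgrounds and on 11 of 12 same-slide pairs, with 0.41 on the second probe (0.0169). Under normexp it was 0.13 (0.0171), and its call was lost without replicate 1 or replicate 2 of all groups (0.126 and 0.0672). Leaving out a replicate number also ended the PH calls of Fgf5, Fgf22 and Igfbp5 in 2 of 3 cases and the PEE calls of Fgf7 and Fgf10 in 1 of 3. Among the other pathway genes the average effect of PEE was 0.65 for Fgfbp1, and negative for Thbs1 (-1.13) and Ctgf (-1.04). Fgf21 rose by 0.36 with PEE (0.0232). With PH Pappa2, a protease of IGFBP5, rose by 0.51 (0.000465), Igfbp4 by 0.45 and Igfals by 0.59 (0.0383), and Ltbp2 and Spint2 fell by 0.38 and 0.23. Of these, Spint2 was not called on the mean of its probes (-0.06, 0.609), and Igfals was at -0.071 under normexp and lost its call without any 1 of 12 arrays. With TA Fgfr4 rose by 0.36, Spry1, a feedback inhibitor of FGF signalling, by 0.27 and Ltbp3 by 0.24 (0.0056, 0.0127 and 0.0273), the last being lost without any 1 of 7 arrays (0.05 to 0.0544). On slides 1, 2 and 3 the average effect of PH on Tgfb2 was 0.94, 0.47 and 0.37, that of TA on Fgf22 0.41, 0.45 and 0.38, and that of PEE on Fgf7 0.19, 0.31 and 0.41.

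**Figure D4:**
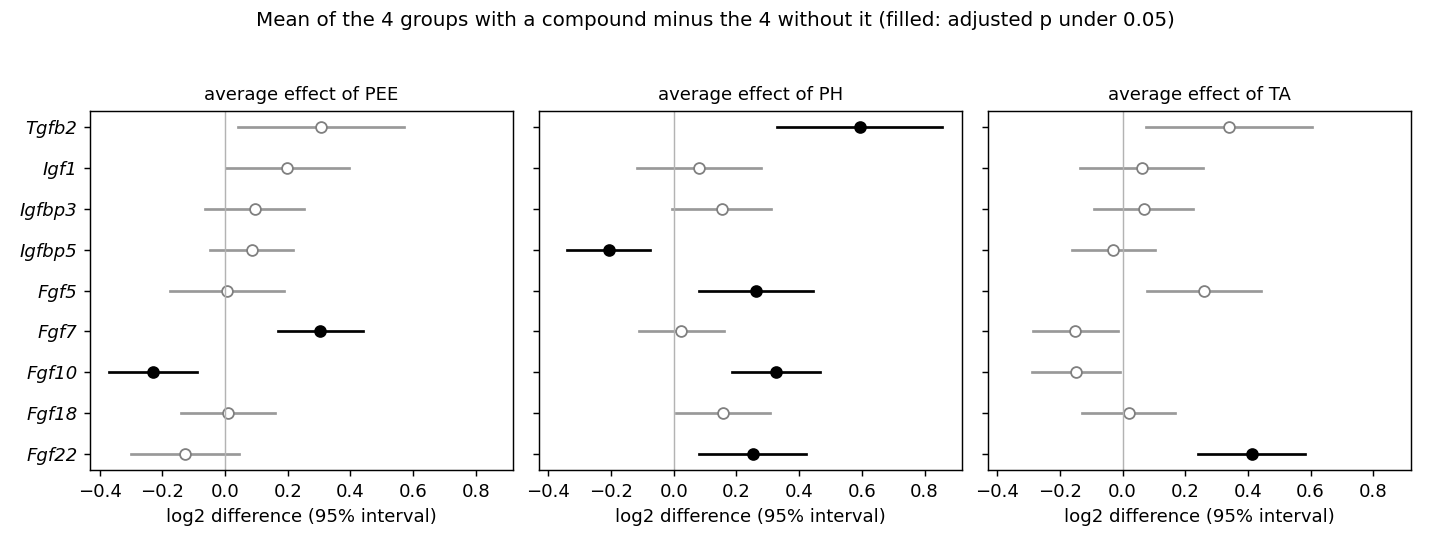
Average effect of each compound on the 9 tested genes (log2 difference, points) with 95% intervals (lines); filled points have an adjusted p under 0.05. PH has 5 filled points, PEE 2 and TA 1, and the intervals of Tgfb2 lie above 0 in all 3 panels although PEE (0.31, adjusted p = 0.0806) and TA (0.34, 0.102) did not pass.

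Whether a mixture departed from the sum of its single compounds was tested on the log2 scale. None of the 9 genes was called for PEE-PH, PEE-TA, PH-TA or PEE-PH-TA, where 0%, 0.068%, 0.0136% and 0% of all genes were; at an unadjusted p under 0.05 limma gave 1, 1, 0 and 0 genes. For Tgfb2 the departures were 0.51, 0.28 and 0.43 ± 0.36 for the pairs, with 95% intervals from -0.23 to 1.26, -0.46 to 1.03 and -0.32 to 1.18. For the triple mixture it was -0.56 ± 0.50, from -1.62 to 0.50. All 4 intervals contain 0 and are wide beside the differences of 0.36 to 0.57 that the single compounds gave.

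Adding the remaining compound to a pair was compared next, a contrast chosen after the levels had been seen. Against PEE-PH, 0 of 9 genes were called in PEE-PH-TA (0.721% of all genes), and against PEE-TA 0 (0.24%), with 3 and 2 genes at an unadjusted p under 0.05. Tgfb2 was 0.64 below PEE-PH and 0.64 below PH-TA, without overlap of arrays, but the adjusted p values were 0.187 and 0.102. Against PH-TA Fgf7 rose by 0.41 and Igfbp5 fell by 0.42 (0.0396 and 0.0344), 1 gene in each direction beside 8.61% of all genes higher and 4.91% lower (13.5% in all). The Fgf7 call was lost without any 1 of its 6 arrays (0.0591 to 0.123), and the Igfbp5 call without PH-TA replicate 1 or 2 or PEE-PH-TA replicate 1 or 2 (0.0522 to 0.191). On the second Igfbp5 probe the difference was -0.37 and not called (adjusted p over probes 0.17).

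For 4 of the genes the effect of TA differed with what it was added to, in contrasts also chosen after the levels had been seen. TA shifted the mean of Tgfb2 by 0.43 from control, by 0.72 from PEE and by 0.86 from PH, upward on each of 3 slides in each case, and by -0.64 from PEE-PH, downward on each of 3 slides. The effect of TA on PEE-PH was lower than its effect on PEE by 1.36 ± 0.36 and lower than its effect on PH by 1.51 ± 0.36 (adjusted p = 0.00916 and 0.0128). The first of these contrasts is also the effect of PH on PEE-TA (-0.28 for Tgfb2) minus its effect on PEE (1.08). The second is also the effect of PEE on PH-TA (-0.64) minus its effect on PH (0.87). Neither contrast is therefore particular to TA. For Fgf18 TA shifted the mean by 0.37 from PEE and by -0.46 from PEE-PH (difference -0.83 ± 0.20, 0.00566). From PH the shift was 0.02, upward on 1 of 3 slides, and the contrast with PH was not called (-0.48, 0.119). For Fgf22 TA added 0.94 to PEE and 0.06 to PEE-PH (difference -0.88 ± 0.23, 0.00916). For Igfbp5 it added 0.35 to PH and -0.34 to PEE-PH (difference -0.69 ± 0.18, 0.019). In all, 0 of 9 genes were higher and 3 lower when the effect on PEE-PH was set against that on PEE, where 18.4% of all genes were called higher and 9.06% lower (27.5% in all). Against that on PH 0 were higher and 2 lower, where 8.9% and 4.47% were (13.4% in all). Other probes of Igf1 and Igfbp3 were called higher in the contrast against PEE (0.49 and 0.63, adjusted p over probes 0.0469 and 0.0471). There the used probes gave -0.30 and -0.20, not called. The same test for adding PEE to PH-TA against adding it to TA called 0 (0.784% of all genes, 3 members at an unadjusted p under 0.05); Tgfb2 differed by -1.28 there (0.0701). The calls of Tgfb2, Fgf18 and Fgf22 were kept when any 1 array was left out, and that of Igfbp5 was lost without PH-TA replicate 1 (-0.57, 0.064) or PEE-PH replicate 1 (-0.64, 0.0591). Each of these 5 calls was lost in 2 of 3 cases when a replicate number was left out in all groups, with adjusted p of up to 0.121 (Tgfb2), 0.0603 (Fgf18) and 0.115 (Fgf22) against PEE and up to 0.216 (Tgfb2) and 0.287 (Igfbp5) against PH. Under normexp Fgf18 and Fgf22, both dim, differed by -0.26 and -0.18 (0.0603 and 0.158). Both contrasts on adding TA share the groups PEE-PH and PEE-PH-TA, and the contrast on PEE shares PEE-PH-TA with them.

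**Figure D5:**
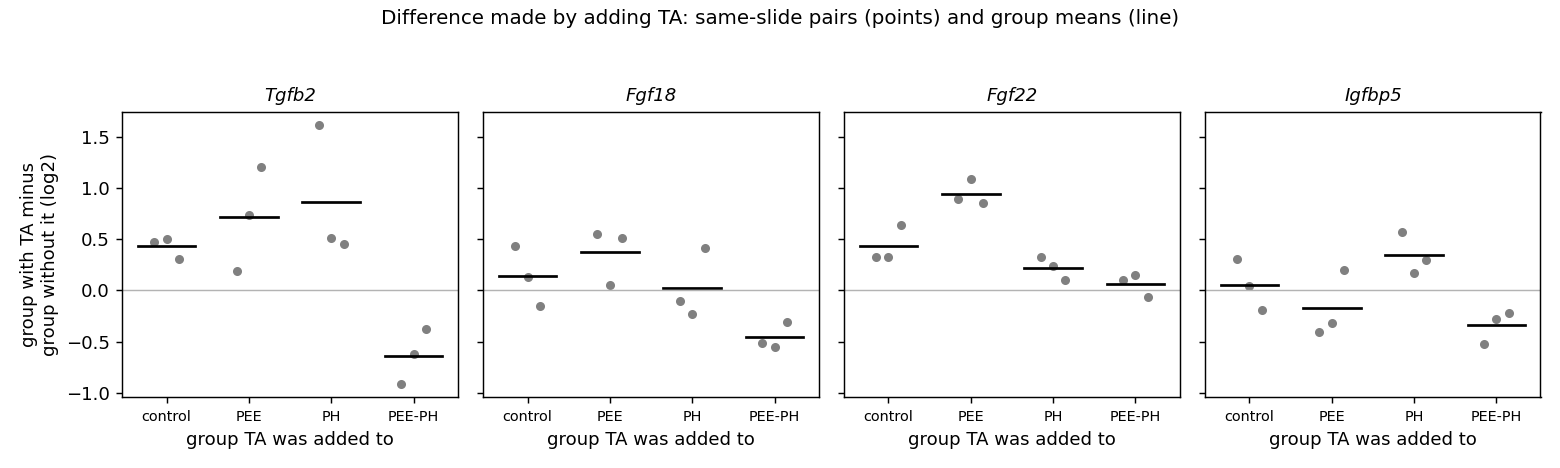
Change on adding TA to control, PEE, PH or PEE-PH (horizontal) for Tgfb2, Fgf18, Fgf22 and Igfbp5: log2 difference within each slide (points) and of group means (line). For Tgfb2 the change is 0.43, 0.72 and 0.86 in the first 3 cases and -0.64 when TA joins PEE-PH.

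Among the 9 genes the levels of Tgfb2 and Igfbp3 were the most alike over the 24 arrays (r = 0.81), followed by Fgf5 with Fgf22, Igf1 with Tgfb2 (0.74) and Igf1 with Igfbp3 (0.72), and the least alike were Fgf7 and Fgf22 (-0.47). The points share groups, slides and the scaling of each array. Of all named genes the most like Tgfb2 were Sfxn3 (0.972), Ntn5 (0.967) and Parm1 (0.966). Ntn5, a netrin, rose by 1.30 with PEE-PH, 1.06 with PEE-TA, 1.24 with PH-TA and 0.83 with all compounds. The most like Igfbp3 was Dkk2, a Wnt pathway inhibitor (0.915), like Igfbp5 Vwf, the von Willebrand factor of endothelium (0.864), and like Fgf18 Loxl2, a lysyl oxidase (0.877). The most like Igf1 was Grik4 (0.912), like Fgf7 Ninj1 (0.919) and like Fgf10 Ppp3cb (0.812).

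The used probes of the remaining genes lie, on NCBI37 (mm9), at chr5:98705980-98706039 for Fgf5, chr2:125916134-125916193 for Fgf7, chr13:119580365-119580424 for Fgf10, chr11:33017441-33017500 for Fgf18 and chr10:79219513-79219572 for Fgf22. They lie at chr10:87393516-87393575 for Igf1, chr11:7106193-7106252 for Igfbp3, chr1:72904829-72904888 for Igfbp5 and chr5:16124829-16124888 for Hgf. Whether a probe lies in coding sequence or in an untranslated region was not analysed here.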

How the data were processed

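RNA of cultured mouse whisker follicles was measured on 24 one-colour Agilent arrays, 3 for each of 8 groups, set by the labels. Per the file headers, the deposited intensity values were background-subtracted and detrended within each array; Agilent Feature Extraction 12.0.3.1 is named in the submitters' processing notes. The authors' deposited value table holds log2 values that look quantile-normalized, with the method not given in the sources used here; it served as an alternative. The main setting was the log2 processed signal minus the array's 75th percentile. Control spots were left out, spots of a probe were averaged, and probes entered the test when all 3 arrays of 1 group or more had them well above background, with the brightest probe standing for its gene.

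One limma model (limma 3.58.1, R 4.3.3, package data.table at 1.17.8) over the 24 arrays gave each comparison, with Benjamini-Hochberg adjustment over 22065 genes. Figures were drawn with Python 3.11.15 and matplotlib 3.10.9. In data simulated for PEE-PH against control over 22065 genes, 100 genes were shifted by 0.5 and 100 by 1 (log2). The test recovered 55% and 83% of them, with 8 false calls and 0 calls in the wrong direction. Far fewer genes were shifted than the 35.9% called for PEE-PH in the real arrays, and the simulated noise was independent between arrays. These rates therefore need not hold for the real comparison. The precision is limited by the number of arrays.

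The 10 genes and all gene lists were chosen with earlier results of these data known. Of the pathway lists, the 3 strongest rises and the 3 strongest falls per comparison with control or average effect were named, among those past the threshold and, against control, without overlap of arrays; the receptors of the 10 genes, the other TGF-beta and IGF ligands, and other groups' values of named genes were added for their role, and Fgfr3, Fgf1 and Fgf2 after their values were seen. A gene that the rule also names is counted in its list and not reported here. For likeness, the 3 genes with the highest Pearson r were taken per gene, of which the first is named (3 for Tgfb2).

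Replicate numbers coincide with slides. Same-numbered arrays of a treated group and control deviated together with r over 0.1 in 12 of 21 pairs of arrays (-0.0858 to 0.312). In 1 of 7 comparisons, PEE-PH against control, all 3 pairs were over 0.1 (0.136 to 0.257), so the numbers may pair the samples there. The cut of 0.1 is arbitrary and was applied to these same data. Counts and calls, those of PEE-PH included, are from the fit without a block unless a block is named. The blocked value stands beside the PEE-PH result it changes, that of Igf1, which passed with the block (adjusted p = 0.048 against 0.0503). Igf1 also passed there under normexp (0.0199) and the trended and robust prior (0.0451). It passed too without control replicate 3 or PEE-PH replicate 2 or 3 (0.0471, 0.0481 and 0.0473). Nothing else says how far the 3 experiments were separate, so the p-values measure only the spread between these arrays. Alternatives were quantile normalization, normexp background correction (offset 50), the authors' table, no filter, the mean of a gene's probes, a trended and robust prior, a replicate block, only the arrays compared, and leaving out arrays or replicate numbers. The contrasts on adding a compound to a pair were chosen after seeing the data.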

Additional observations from a re-analysis of the deposited data

Results flagged for a closer look

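In 5 cases the effect of TA on 1 of the genes differed between backgrounds by a test of the difference itself (limma, 3 arrays a group, adjusted over 22065 genes), in contrasts chosen after the levels had been seen. The contrasts against PEE equally compare effects of PH, and those against PH equally compare effects of PEE. Set against the effect of TA on PEE, its effect on PEE-PH was lower by 1.36 for Tgfb2 (-1.36, adjusted p = 0.00916), and the differences were -0.828 for Fgf18 (0.00566) and -0.882 for Fgf22 (0.00916). Set against the effect of TA on PH, the differences were -1.51 for Tgfb2 (0.0128) and -0.686 for Igfbp5 (0.019). The 3 contrasts of Tgfb2, Fgf18 and Fgf22 against PEE kept their calls without any 1 array, and all 5 lost them in 2 of 3 cases without a replicate number in all groups. Of all genes, 27.5% were called in the comparison against PEE and 13.4% in that against PH. The Fgf18 and Fgf22 differences were not called under normexp background correction, and the Igfbp5 difference was not called without PH-TA replicate 1 or PEE-PH replicate 1. On the second Igfbp5 probe that difference was -0.48 and not called (adjusted p over probes 0.212).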

How the results depend on the processing

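Of 1413 differences of the 9 genes under other settings, 1359 kept their side of the threshold, 20 lost and 33 gained a call, and 1 gained a call in the opposite direction. Calls that were kept also kept their direction. For differences called in neither fit the direction was not compared. Leaving out 1 array kept 1904 of 1971 values on their side, with 38 calls lost and 29 gained, and leaving out a replicate number in all groups kept 495 of 540, with 42 lost and 3 gained. Of the changes in the counts of the 9 genes called, only the larger are listed here. Left out, for example, is the average effect of PH, where Fgf18 gained a call under quantile normalization (0.0447). PEE went from 0 to 1 under quantile normalization, the trended and robust prior and the authors' table, the gene being Fgf22. PEE-TA went from 2 to 1 without the filter and under the trended prior, PH-TA from 3 to 1 in a fit of its own 6 arrays, and PEE-PH-TA from 1 to 2 on the mean of probes and in the authors' table and to 0 without the filter. The average effect of PEE went from 2 to 1 under normexp. That of TA went from 1 to 2 without the filter and in the authors' table and to 4 under normexp. PEE-PH-TA against PH-TA went from 2 to 0 in a fit of its own arrays and to 1 in the authors' table, and PEE added to PH-TA against PEE added to TA from 0 to 2 under normexp. The cause of these changes was not tested. Without arrays or replicate numbers the counts ranged from 0 to 1 (PEE), 1 to 4 (PEE-PH), 0 to 3 (PEE-TA), 1 to 3 (PH-TA), 0 to 1 (PEE-PH-TA), 1 to 3 (average PEE), 2 to 6 (average PH) and 0 to 2 (average TA). They ranged from 0 to 2 for PEE-PH-TA against PH-TA, 0 to 1 against PEE-TA, 0 to 4 for TA added to PEE-PH against TA added to PEE, 0 to 3 against TA added to PH and 0 to 2 for PEE added to PH-TA. Under normexp the Fgf10 difference in the effect of TA on PEE-PH and on PEE turned from -0.06 to 0.22 (adjusted p = 0.0331), where the median of all genes moved to 0.17, and the average effect of PH on Igfals turned from 0.59 to -0.071. With the replicate block, which is also the slide, none of the calls of the 9 genes was lost and Igf1 gained 2: PEE-PH (0.048) and TA added to PEE-PH against TA added to PH (0.0486), so that PEE-PH had 4 genes called. Igf1 was also called in these 2 comparisons under normexp (0.0199 and 0.0106) and the trended and robust prior (0.0451 and 0.045). Hgf, Fgf10, Fgf18 and Fgf22 are dim, and for them signal over background limits what could be seen.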
